A study of Mus musculus with 37 samples.

Results

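Estradiol (E2) added to progesterone (P4) was examined in mature luminal cells of the mammary gland of mice with wild-type (WT) Esr1, the gene of estrogen receptor alpha. All 3 libraries of WT cells given E2+P4 were set against all 4 libraries of WT cells given P4, 7 of the 37 libraries of the series, chosen by genotype and treatment in the sample titles. Every animal of both groups was ovariectomized, was raised to 8 weeks of age, and carried hormone pellets for 8 days before mature luminal cells were sorted by flow cytometry and their RNA was sequenced. The only labelled difference between the groups was therefore the E2. The series also holds WT cells given E2 or placebo, and cells with the D542G or Y541S form of Esr1 given the same 4 treatments. Their levels are used here where a difference between responses was tested. All 37 libraries were fitted together, so the others also entered the estimate of spread behind the p-values of the main comparison. The design text names the samples biological replicates, but no label says whether each came from 1 animal or a pool, and the p-values reflect how far these samples varied, which may be technical in part.

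Mature luminal cells are the hormone-sensing cells of the mammary epithelium. They carry estrogen and progesterone receptors, and they pass hormonal signals to neighbouring basal and progenitor cells through secreted ligands such as RANKL, Wnt4 and amphiregulin. Estrogen receptor alpha is a transcription factor that induces the progesterone receptor gene in this tissue. Proteins that such cells secrete enter the endoplasmic reticulum through the Sec61 channel, are glycosylated and folded there, and leave in coated vesicles.

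The promoters that bear on the results below are shown first. A search of the 250 bases before each RefSeq start site (GRCm38.p6, 32851 windows of 27025 genes, both strands) looked for 3 elements. These were the full estrogen response element (GGTCA, 3 bases of any kind, TGACC), the progesterone and glucocorticoid receptor element (GNACA, 3 bases, TGTNC) and the endoplasmic reticulum stress response element (CCAAT, 9 bases, CCACG), the site of the unfolded protein response factors ATF6 and XBP1. The stress response element was added to the search after the values were seen. Printed are the windows of 3 chaperone genes with a stress response element, chosen after their values were seen: Calr, calreticulin (chr8:84846932-84847181, minus strand), Pdia6, a protein disulfide isomerase (chr12:17266339-17266588, plus strand), and Hspa5, the chaperone BiP (chr2:34771840-34772089, plus strand). The window of Sgk1, the steroid-induced kinase gene (chr10:21993640-21993889, plus strand), holds the progesterone and glucocorticoid receptor element. Each is written 5′ to 3′ on the strand of its gene, and capitals mark the match, which in Calr is in reverse complement.
Calr: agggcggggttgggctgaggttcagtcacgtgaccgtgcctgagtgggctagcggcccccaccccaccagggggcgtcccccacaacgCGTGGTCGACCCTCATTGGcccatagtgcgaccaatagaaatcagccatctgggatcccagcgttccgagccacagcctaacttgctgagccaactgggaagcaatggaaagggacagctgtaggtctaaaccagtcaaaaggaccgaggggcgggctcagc
Pdia6: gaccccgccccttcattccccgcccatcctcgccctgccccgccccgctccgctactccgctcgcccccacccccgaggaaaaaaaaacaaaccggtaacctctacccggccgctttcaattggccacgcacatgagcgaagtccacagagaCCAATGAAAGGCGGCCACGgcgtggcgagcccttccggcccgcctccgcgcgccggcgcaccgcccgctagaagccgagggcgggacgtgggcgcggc
Hspa5: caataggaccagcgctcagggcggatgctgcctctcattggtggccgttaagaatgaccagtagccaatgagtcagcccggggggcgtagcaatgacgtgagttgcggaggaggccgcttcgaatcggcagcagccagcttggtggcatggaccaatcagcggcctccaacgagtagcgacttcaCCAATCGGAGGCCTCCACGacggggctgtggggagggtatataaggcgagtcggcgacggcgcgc
Sgk1: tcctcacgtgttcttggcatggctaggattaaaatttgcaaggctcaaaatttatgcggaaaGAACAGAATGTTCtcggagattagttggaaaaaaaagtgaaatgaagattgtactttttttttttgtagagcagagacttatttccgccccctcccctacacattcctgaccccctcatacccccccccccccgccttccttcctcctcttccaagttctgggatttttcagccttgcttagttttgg
The match ended 143 bases before the start site in Calr, 79 in Pdia6, 46 in Hspa5 and 175 in Sgk1.

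Over the 18426 genes tested, 2220 were higher and 2054 lower in WT E2+P4 than in WT P4 cells at a Benjamini-Hochberg adjusted p under 0.05 from edgeR's quasi-likelihood test. That is 12% and 11.1% of the genes, 23.2% in all, and these shares are the background against which each list of genes is read. Of the called genes, 2185 differed by at least 2-fold, 1061 of them higher and 1124 lower. In 3810 of the called genes the 3 WT E2+P4 libraries did not overlap the 4 WT P4 libraries, as in 31.2% of all genes tested. Levels are CPM, the counts of a gene scaled to a common library size, given for libraries 1, 2 and 3 of WT E2+P4 and for 2, 3, 4 and 5 of WT P4, and are not corrected for gene length. Differences are log2 fold changes ± SE, with positive values higher in WT E2+P4. Group means are given ± SD over 3 libraries, and over 4 for WT P4.

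The 7 libraries held 30.64 to 52.24 M counts, and the first principal component of their log2 CPM, with 44.5% of the variance, separated the groups. On the second, with 19.2%, WT E2+P4 2 stood at -85.2 and WT P4 2 at 75.0. WT P4 2 had the highest cell cycle and basal cell markers of its group: the 15 basal markers tested summed to 399 to 476 CPM in WT E2+P4, and to 987 CPM in WT P4 2 against 201 to 233 in the other WT P4 libraries. WT E2+P4 2 had the highest sums of leukocyte (94.1 CPM), fibroblast (361), erythroid (232) and adipocyte (147) markers of its group. WT P4 4 and 5 carry sample identifiers of a later series than the other 5 libraries. Without these and the Y541S placebo library of that series 2838 genes were called, without WT P4 2 4227, and without WT E2+P4 2 3501. The 10 most abundant genes made up 8.46% to 12.63% of WT E2+P4 and 5.95% to 6.88% of WT P4 libraries. In bulk samples, a change in the share of a cell type and a change in RNA per cell cannot be told apart.

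The genes with the largest rise differed widely in their level under P4 alone. Klk1, a tissue kallikrein of a family of near-identical genes, so that its reads may be shared (ENSMUSG00000063903, chromosome 7, 44225360 to 44229618), was at 514, 260 and 179 CPM in WT E2+P4 cells, against 0.115, 0.0270, 0.288 and 0.318 CPM in WT P4 cells. It rose by 10.77 ± 1.51 log2, adjusted p = 4.19e-06. Sftpd, surfactant protein D, a collectin that binds microbes (ENSMUSG00000021795, chromosome 14, 41172214 to 41185149), was at 272, 345 and 399 CPM in WT E2+P4 cells, against 0.276, 1.43, 0.416 and 0.286 CPM in WT P4 cells (9.12 ± 0.61 log2, adjusted p = 1.43e-11). As the rule that chose these genes required, the groups did not overlap. The fitted differences were 1746-fold for Klk1, with 5, 1, 9 and 10 counts in the WT P4 libraries, and 556-fold for Sftpd. Gpx3, the secreted glutathione peroxidase (ENSMUSG00000018339, chromosome 11, 54902453 to 54910377), was at 44243, 75290 and 91203 CPM in WT E2+P4 cells, against 911, 1069, 1505 and 885 CPM in WT P4 cells (6.01 ± 0.43 log2, adjusted p = 4.50e-11). It held 4.28% to 7.0% of all counts in WT E2+P4 libraries and 0.0888% to 0.153% in WT P4 libraries. Defb1, a beta-defensin, was at 1263, 1458 and 1548 CPM in WT E2+P4 cells, against 30.1, 32.4, 6.21 and 14.0 CPM in WT P4 cells (6.10 ± 0.97 log2, adjusted p = 2.80e-05). Hsd11b2, the enzyme that inactivates glucocorticoids, was at 211, 20.2 and 83.4 CPM in WT E2+P4 cells, against 1.79, 1.03, 1.02 and 0.891 CPM in WT P4 cells (6.46 ± 0.97 log2, adjusted p = 1.26e-05), with the widest spread in WT E2+P4.

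The other 7 genes complete the 12 with the largest rise among genes whose mean reached 2 log2 CPM and whose groups did not overlap. Pcp4, a calmodulin-binding peptide, rose by 8.36 ± 0.83 log2 and the long-chain acyl-CoA synthetase Acsl6 by 8.35 ± 1.37 log2. The phosphatase Ptpn5 rose by 7.03 ± 0.65 log2, the collagen VI chain Col6a1 by 6.53 ± 0.84 log2 and the dipeptidase Dpep2 by 6.0 ± 0.49 log2. Megf11 rose by 5.75 ± 0.61 log2 and the flavin monooxygenase Fmo1 by 5.54 ± 0.60 log2. Counted in CPM, the genes with the largest rise included Gpx3, Tmed3, Cd9 and Fth1. Tmed3, of the p24 family of cargo receptors between endoplasmic reticulum and Golgi, was at 3897, 6943 and 8211 CPM in WT E2+P4 cells, against 395, 419, 482 and 382 CPM in WT P4 cells (3.92 ± 0.35 log2, adjusted p = 2.21e-09). The tetraspanin Cd9 rose by 2.02 ± 0.14 log2 and the ferritin heavy chain gene Fth1, which has processed copies in the genome, by 2.71 ± 0.19 log2.

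**Figure D1:**
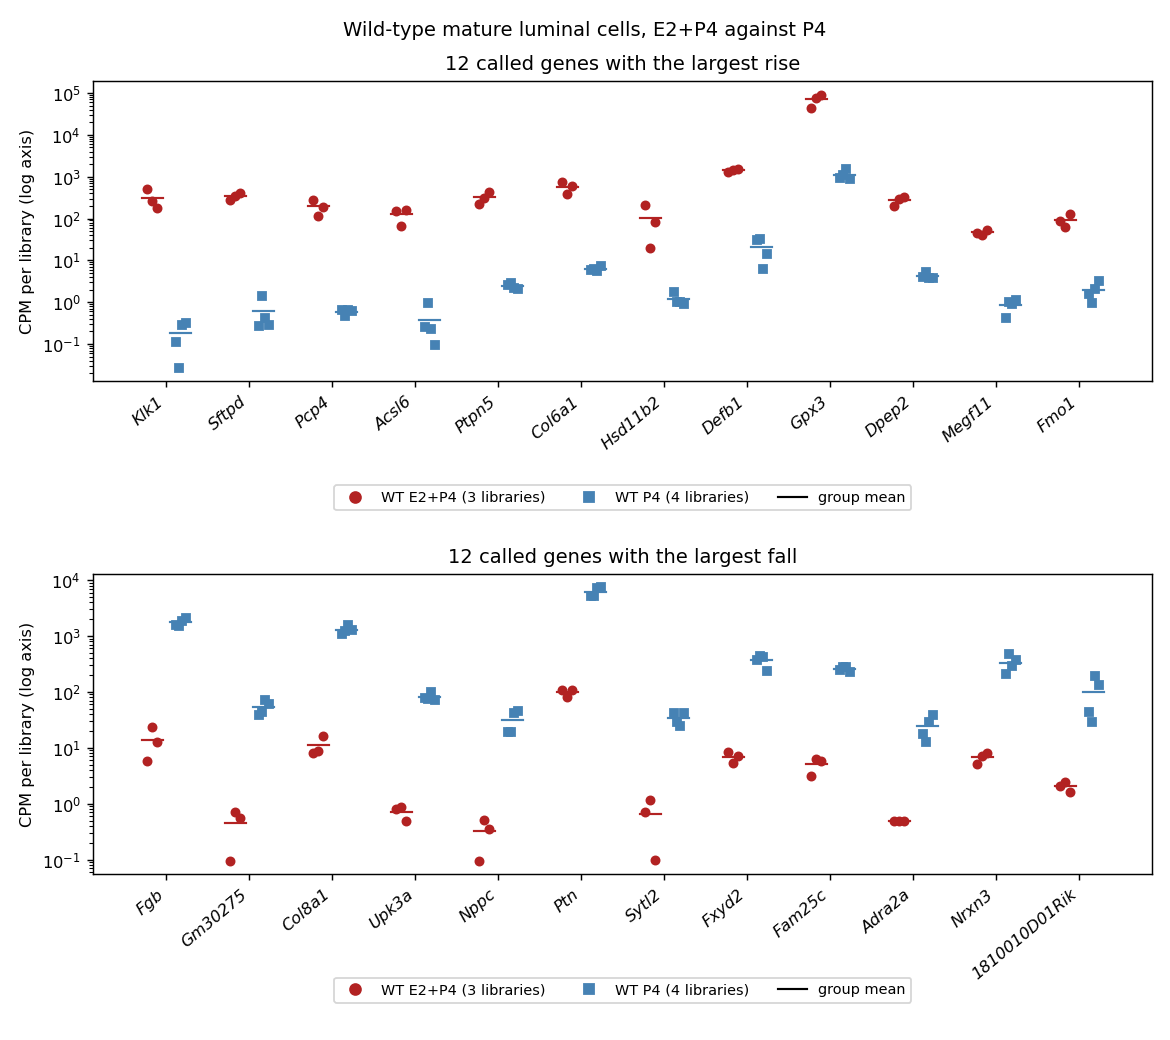
CPM per library on a log axis for the 12 called genes with the largest rise (top) and the 12 with the largest fall (bottom), with WT E2+P4 libraries as circles left of WT P4 libraries as squares and a bar at each group mean. No WT E2+P4 library overlapped a WT P4 library in any of the 24 genes, as the rule that chose them required.

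The genes with the largest fall also covered a wide range of levels under P4 alone. Ptn, the growth factor pleiotrophin (ENSMUSG00000029838, chromosome 6, 36714929 to 36810220), was at 106, 80.1 and 110 CPM in WT E2+P4 cells, against 5157, 5152, 7181 and 7412 CPM in WT P4 cells (-5.98 ± 0.66 log2, adjusted p = 9.24e-08). Col8a1, a collagen VIII chain, was at 7.93, 8.77 and 16.3 CPM in WT E2+P4 cells, against 1096, 1224, 1585 and 1294 CPM in WT P4 cells (-6.88 ± 0.59 log2, adjusted p = 1.18e-09). Fgb, the fibrinogen beta chain, was at 5.79, 23.3 and 12.9 CPM in WT E2+P4 cells, against 1585, 1498, 1823 and 2127 CPM in WT P4 cells (-6.98 ± 1.25 log2, adjusted p = 1.24e-04). In the fit Fgb and Col8a1 were 126-fold and 118-fold lower and Ptn 63.0-fold lower, with no overlap between the groups, as the rule that chose them required. Nppc, C-type natriuretic peptide, fell by 6.64 ± 0.98 log2, the alpha-2A adrenergic receptor Adra2a by 5.65 ± 0.90 and the uroplakin Upk3a by 6.80 ± 1.24. Sytl2, an effector of Rab27 in vesicle docking, fell by 5.73 ± 0.72, the sodium pump regulator Fxyd2 by 5.72 ± 0.92 and neurexin 3, Nrxn3, by 5.62 ± 0.63. Gm30275, Fam25c and 1810010D01Rik were the others, at -6.91, -5.67 and -5.60 log2. In CPM the largest falls were those of Slc12a2, Ptn, Tmsb4x, Cd164 and Krt19. Slc12a2, the sodium, potassium and chloride cotransporter of secretory epithelia, was at 1337, 1290 and 3125 CPM in WT E2+P4 cells, against 10488, 9586, 6771 and 10875 CPM in WT P4 cells (-2.30 ± 0.46 log2, adjusted p = 4.28e-04). The call of Cd164, a sialomucin (-1.03 ± 0.28 log2), was lost without WT E2+P4 1 (adjusted p = 0.0628), as was that of Krt19 (0.0933).

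Genes of protein entry into the secretory pathway rose together. Of 37 genes of the translocon, vesicle coats and export, 27 were called higher and 0 lower, with a median of 0.71 log2, against -0.03 over all genes. Spcs3, a subunit of signal peptidase, was at 476, 324 and 592 CPM in WT E2+P4 cells, against 115, 108, 98.0 and 111 CPM in WT P4 cells (2.10 ± 0.15 log2, adjusted p = 2.33e-11). Sec61a1, the channel itself, was at 785, 870 and 1186 CPM in WT E2+P4 cells, against 481, 424, 330 and 358 CPM in WT P4 cells (1.25 ± 0.15 log2, adjusted p = 2.32e-07). Ssr4, of the translocon-associated complex, rose by 1.91 ± 0.19 log2, Sec24d, of the COPII coat, by 1.95 ± 0.23 log2 and Mcfd2, a cargo receptor partner, by 1.41 ± 0.11 log2. The factors Creb3l1 (-1.08 ± 0.44 log2, adjusted p = 0.0777) and Creb3l2 (-0.61 ± 0.28 log2, adjusted p = 0.119), known as transcriptional regulators of this machinery, did not pass the test and had negative values. RNA counts do not show the activity of such factors, and their part was not tested. Across the alternatives run, 22 to 28 of the 37 were called higher and at most 1 lower.

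Of 24 genes of protein N-glycosylation, 17 were called higher and 0 lower, with a median of 0.78 log2. Ddost, a subunit of the oligosaccharyltransferase that attaches the glycan, was at 1114, 1133 and 1464 CPM in WT E2+P4 cells, against 460, 450, 442 and 404 CPM in WT P4 cells (1.49 ± 0.12 log2, adjusted p = 5.82e-10). The other subunits Rpn1 and Rpn2 rose by 1.03 ± 0.14 log2 and 1.38 ± 0.17 log2. Dpagt1, the first enzyme of the lipid-linked glycan, rose by 1.59 ± 0.15 log2 and the mannosyltransferase Alg2 by 1.75 ± 0.18 log2. The groups did not overlap in any of these 5 genes.

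Of 25 genes of the unfolded protein response, 17 were called higher and 0 lower, with a median of 0.75 log2. Edem1, which directs misfolded glycoproteins to degradation, was at 420, 547 and 771 CPM in WT E2+P4 cells, against 125, 124, 77.5 and 110 CPM in WT P4 cells (2.41 ± 0.20 log2, adjusted p = 6.28e-10). Sdf2l1, a partner of BiP, was at 226, 252 and 342 CPM in WT E2+P4 cells, against 56.6, 68.1, 70.2 and 54.2 CPM in WT P4 cells (2.13 ± 0.22 log2, adjusted p = 3.69e-08). Ern1, which encodes the stress sensor IRE1, rose by 1.99 ± 0.23 log2, Edem2 by 1.60 ± 0.17 log2 and the secreted chaperone Manf by 1.33 ± 0.15 log2. Hspa5 was at 2145, 2706 and 3253 CPM in WT E2+P4 cells, against 1811, 1918, 1826 and 1980 CPM in WT P4 cells (0.52 ± 0.16 log2, adjusted p = 0.0205). Ddit3, Trib3 and Chac1, which act in stress signalling rather than folding, were not called. They had values of -0.61, -0.68 and -0.93 log2 with adjusted p of 0.233, 0.0976 and 0.328. Xbp1 RNA, whose splicing IRE1 performs, was at 482, 606 and 688 CPM in WT E2+P4 cells and 641, 725, 655 and 584 CPM in WT P4 cells (-0.14 ± 0.19 log2, adjusted p = 0.651), and counts per gene do not show splicing.

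The stress response element was found in 37 of the 32851 windows (0.113%). It lay in the window of 8 of 1597 genes called higher (0.501%), of 0 of 1553 called lower and of 10 of 9522 not called (0.105%). All 8 members of the unfolded protein response list with a match (Calr, Hsp90b1, Canx, Pdia6, Dnajc3, Creld2, Syvn1 and Hspa5, of 22 with a window) had positive log2 values, 0.29 to 1.13, and Dnajc3 was not called. Most of the matches among genes called higher were thus members of that list, which holds genes known as targets of this element. Neither the matches of the list nor the share among genes called higher is therefore independent evidence. Of the 29 genes of translocon and export with a window 0 held a match, and of the 21 of N-glycosylation 1, Alg12. The estrogen response element was in 21 windows (0.0639%). It lay in 0 of the genes called higher, 0 of those called lower and 3 of 9522 not called (0.0315%). So few matches cannot show whether called genes differ in this element. The receptor element shown in Sgk1 was in 127 windows (0.387%), in 11 genes called higher (0.689%), 9 called lower (0.580%) and 29 not called (0.305%). A match describes the letters of a window and not binding.

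**Figure D2:**
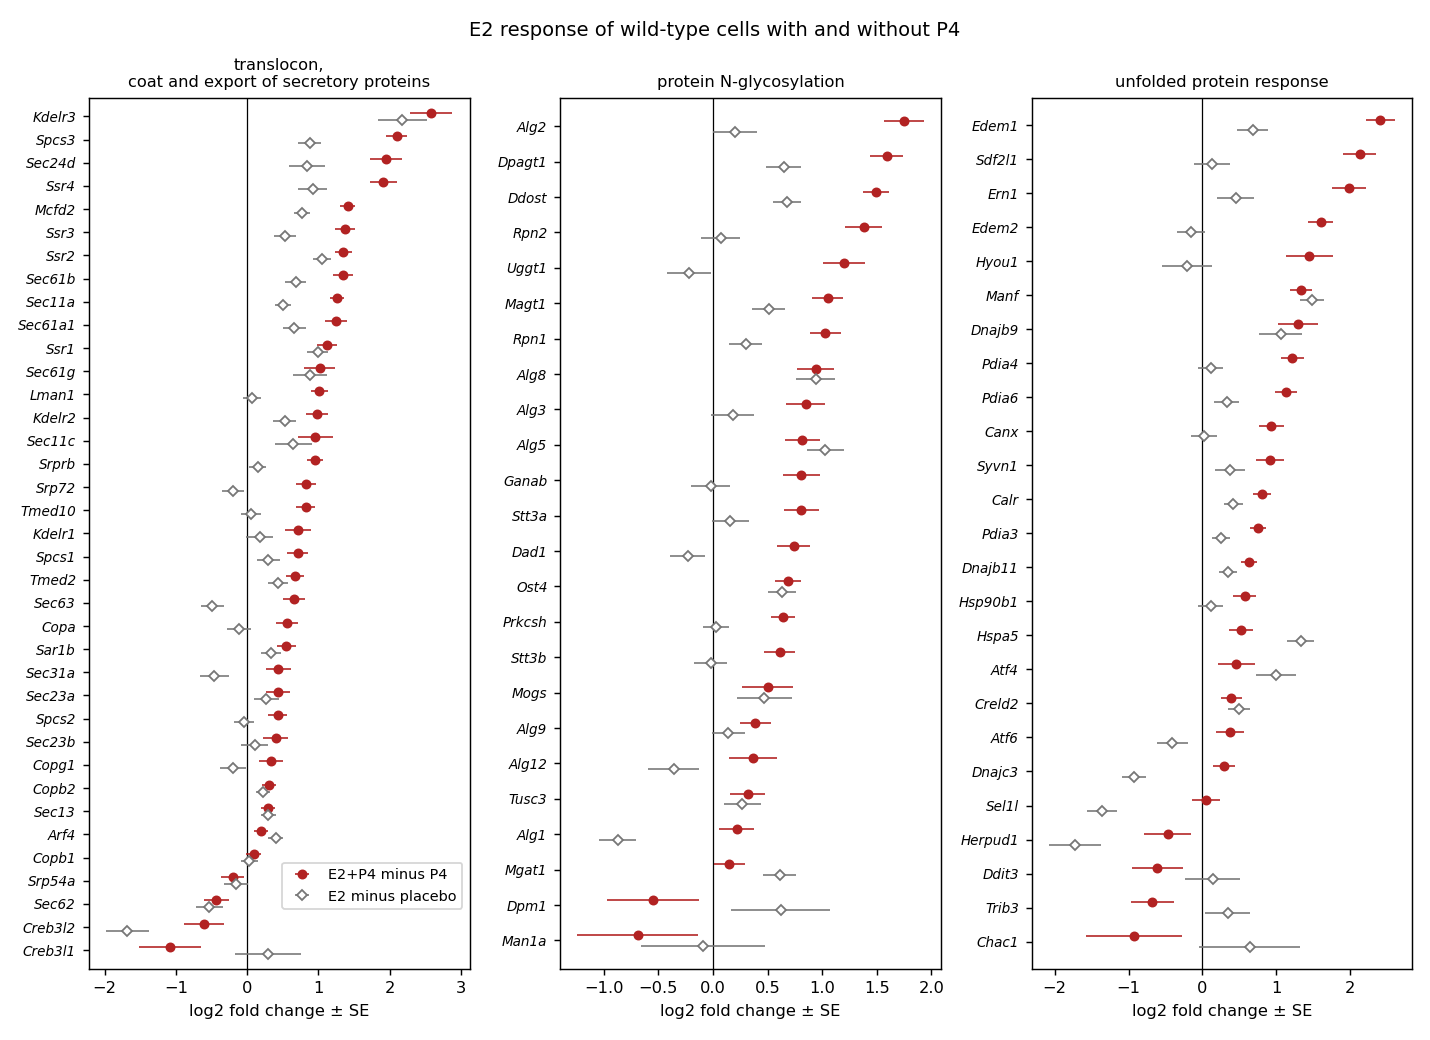
Log2 fold change ± SE of each tested member of the lists for translocon, coat and export (37), N-glycosylation (24) and the unfolded protein response (25), with E2+P4 minus P4 as filled circles and E2 minus placebo as open diamonds, all in WT cells. Most circles lie to the right of 0, with 27, 17 and 17 members called higher, and many lie to the right of their diamond.

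Among secreted defence proteins and chemokines 10 of 23 were called higher and 2 lower, with a median of 0.93 log2. Lcn2, the siderophore-binding lipocalin, was at 1810, 3692 and 3170 CPM in WT E2+P4 cells, against 237, 353, 296 and 233 CPM in WT P4 cells (3.37 ± 0.45 log2, adjusted p = 2.45e-06). Slpi, a protease inhibitor of secretions, was at 276, 117 and 140 CPM in WT E2+P4 cells, against 4.19, 8.90, 2.75 and 2.48 CPM in WT P4 cells (5.27 ± 0.76 log2, adjusted p = 7.30e-06), and the chemokine Cxcl15 rose by 2.20 ± 0.26 log2. Saa2, an acute-phase serum amyloid gene with close copies, had 208 counts over the WT E2+P4 libraries and 0 over the WT P4 libraries, which is at least 87.8-fold higher against a floor of 3 counts over the group. Clu, the chaperone clusterin, fell to 1499, 1222 and 978 CPM in WT E2+P4 cells, against 3147, 3970, 3333 and 3180 CPM in WT P4 cells (-1.47 ± 0.24 log2, adjusted p = 3.16e-05), and Reg3g, a C-type lectin, fell by 4.18 ± 1.2 log2. WT P4 3 had the highest mean of this list in its group, 2.72 log2 CPM against 1.87 to 1.95 in the others.

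Milk genes were called higher in 9 of 22 and lower in 0, with a median of 1.23 log2, at low levels for the caseins. Csn1s1, alpha-S1 casein, had 2441 counts in WT E2+P4 and 1 in WT P4, a ratio of 3093 with an exact 95% counting interval of 555 to 122205. Csn2, beta-casein, had 890 counts in WT E2+P4 against 1 in WT P4, a ratio of 1128 (202 to 44588). The casein counts lay mostly in WT E2+P4 1: Csn1s1 was at 51.7, 0 and 7.16 CPM in WT E2+P4 libraries 1, 2 and 3, so the interval covers counting error and not this spread. Csn1s2b was more even, at 14.2, 9.92 and 11.7 CPM in WT E2+P4 cells, against 0.0690, 0, 0.0961 and 0 CPM in WT P4 cells (8.06 ± 1.37 log2, adjusted p = 6.63e-05). Plin2, the coat protein of lipid droplets, was at 372, 415 and 514 CPM in WT E2+P4 cells, against 69.5, 89.5, 79.8 and 79.6 CPM in WT P4 cells (2.44 ± 0.30 log2, adjusted p = 4.31e-07) and the folate receptor Folr1 rose by 2.84 ± 0.35 log2. The whey gene Wap was at or near 0 in all 7 libraries, and Lalba, alpha-lactalbumin, was at 1.08, 3.46 and 0.674 CPM in WT E2+P4 cells and 0.667, 1.05, 2.63 and 2.45 CPM in WT P4 cells. Csn3 was at 0 in every library of the series. Such a 0 is not read as absence, since 85.6% of the 1347 protein-coding genes that lie wholly within another gene were at 0 throughout, against 19.5% of those with no overlap.

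Enzymes of fatty acid synthesis were called higher in 11 of 23 and lower in 0, with a median of 0.68 log2. Fasn, fatty acid synthase, was at 482, 429 and 507 CPM in WT E2+P4 cells, against 251, 180, 133 and 250 CPM in WT P4 cells (1.22 ± 0.25 log2, adjusted p = 7.06e-04). Scd2, a desaturase, was at 579, 548 and 927 CPM in WT E2+P4 cells, against 167, 71.1, 74.8 and 66.7 CPM in WT P4 cells (2.85 ± 0.44 log2, adjusted p = 1.93e-05). The acyl-CoA synthetases Acsl3 and Acsl4 rose by 1.76 ± 0.27 log2 and 1.81 ± 0.32 log2, and malic enzyme Me1 by 1.43 ± 0.24 log2. Cholesterol genes moved both ways, with 3 of 23 higher and 7 lower. Hmgcs1 fell by 1.55 ± 0.28 log2, while Ebp rose by 1.06 ± 0.15 log2. Sc5d fell by 1.22 ± 0.15 and Acat2 rose by 1.13 ± 0.23 log2. Of 22 glycolysis and transport genes 7 were higher and 2 lower: the lactate exporter Slc16a3 was at 17.3, 29.1 and 35.4 CPM in WT E2+P4 cells, against 1.36, 3.35, 1.57 and 1.69 CPM in WT P4 cells (3.77 ± 0.50 log2, adjusted p = 1.83e-06), Slc16a1 rose by 1.57 ± 0.28 log2 and the glucose transporter Slc2a3 by 4.27 ± 0.80 log2.

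Estrogen receptor targets were called higher in 9 of 28 and lower in 2, with a median of 0.58 log2. Greb1, an estrogen-induced cofactor of the receptor (ENSMUSG00000036523, chromosome 12, 16670615 to 16800886), was at 118, 222 and 236 CPM in WT E2+P4 cells, against 2.69, 3.00, 6.56 and 4.74 CPM in WT P4 cells (5.50 ± 0.52 log2, adjusted p = 6.32e-09). Ccn5, a matricellular protein, was at 472, 321 and 603 CPM in WT E2+P4 cells, against 21.2, 26.0, 70.3 and 49.4 CPM in WT P4 cells (3.48 ± 0.51 log2, adjusted p = 9.63e-06). Hspb8, a small heat shock protein, rose by 2.55 ± 0.27 log2 and Ctsd, the lysosomal protease cathepsin D, by 1.91 ± 0.21 log2. Pgr, the progesterone receptor, was at 137, 264 and 307 CPM in WT E2+P4 cells, against 90.9, 128, 70.0 and 74.4 CPM in WT P4 cells (1.38 ± 0.34 log2, adjusted p = 0.00336), but its adjusted p was 0.0738 with the sample number as a block. Rara, retinoic acid receptor alpha, fell by 1.09 ± 0.22 log2. Areg, the EGF family ligand amphiregulin, did not pass the test at 476, 1350 and 1276 CPM in WT E2+P4 cells and 641, 819, 213 and 277 CPM in WT P4 cells (1.08 ± 0.43 log2, adjusted p = 0.0667); its adjusted p was 0.0205 without WT P4 3 and 0.0245 without WT E2+P4 1. Tff1 was at 0 in every library of the series.

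Targets shared by progesterone and other steroid receptors were called higher in 6 of 19 and lower in 2, though both groups received P4. Fkbp5, a cochaperone of steroid receptors, was at 354, 271 and 334 CPM in WT E2+P4 cells, against 31.5, 36.3, 18.3 and 16.5 CPM in WT P4 cells (3.64 ± 0.46 log2, adjusted p = 8.22e-07). Sgk1 was at 1899, 3164 and 3797 CPM in WT E2+P4 cells, against 872, 1037, 1082 and 1179 CPM in WT P4 cells (1.5 ± 0.24 log2, adjusted p = 2.73e-05), and Tsc22d3, the leucine zipper protein GILZ, rose by 1.96 ± 0.39 log2. Stat5a, the transcription factor of prolactin signalling, was at 437, 557 and 732 CPM in WT E2+P4 cells, against 133, 156, 199 and 218 CPM in WT P4 cells (1.70 ± 0.23 log2, adjusted p = 2.52e-06). In the prolactin and Stat5 list 4 of 9 were higher and 3 lower. The suppressors of cytokine signalling went apart, as Socs2 rose by 3.16 ± 0.42 log2 while Socs1 fell by 2.26 ± 0.32 and Socs3 by 1.75 ± 0.29. Prlr, the prolactin receptor, was at 526, 879 and 1320 CPM in WT E2+P4 cells, against 1693, 1678, 1994 and 1755 CPM in WT P4 cells (-0.97 ± 0.32 log2, adjusted p = 0.0257), with an adjusted p of 0.164 without WT E2+P4 1, 0.0754 without WT E2+P4 2 and 0.0571 without WT P4 4.

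Identity genes of hormone-sensing cells were called lower in 8 of 19 and higher in 1, Pgr, with a median of -0.42 log2. Esr1 (ENSMUSG00000019768, chromosome 10, 4611593 to 5005614) was at 132, 232 and 343 CPM in WT E2+P4 cells, against 580, 607, 439 and 523 CPM in WT P4 cells (-1.19 ± 0.32 log2, adjusted p = 0.00714), with an adjusted p of 0.0661 without WT E2+P4 1. Foxa1, the pioneer factor of estrogen receptor binding, was at 79.0, 65.3 and 211 CPM in WT E2+P4 cells, against 369, 340, 425 and 464 CPM in WT P4 cells (-1.75 ± 0.42 log2, adjusted p = 0.00253). Cited1, a coactivator of the receptor, was at 183, 392 and 387 CPM in WT E2+P4 cells, against 1113, 1182, 1591 and 1098 CPM in WT P4 cells (-1.96 ± 0.46 log2, adjusted p = 0.00235). Tbx3 fell by 1.64 ± 0.30 and Gata3, a luminal lineage factor, by 1.21 ± 0.25. The luminal keratin Krt8 was at 1200, 2266 and 1584 CPM in WT E2+P4 cells and 1281, 1489, 1760 and 1628 CPM in WT P4 cells, and Krt18 at 4458, 9228 and 7092 CPM in WT E2+P4 cells and 5760, 6399, 7708 and 6699 CPM in WT P4 cells; neither was called (adjusted p = 0.686 and 0.847). All 7 libraries thus held RNA of luminal keratins and of the hormone-sensing genes Esr1, Foxa1 and Prlr, markers of the labelled cell type. The mean log2 CPM of the identity list was 6.26 to 6.83 in WT E2+P4 and 7.31 to 7.53 in WT P4. That of luminal progenitor and alveolar markers was 6.44 to 7.05 in WT E2+P4 and 5.59 to 6.09 in WT P4. The progenitor mean was above the identity mean in WT E2+P4 1 and 2, and below it in the other libraries. Whether all libraries held the same mix of luminal cells was not tested.

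Of the luminal progenitor and alveolar markers 6 of 18 were called higher and 0 lower, with a median of 0.74 log2. Wfdc18, a whey acidic protein family member, was at 3675, 1758 and 936 CPM in WT E2+P4 cells, against 337, 732, 395 and 290 CPM in WT P4 cells (2.27 ± 0.56 log2, adjusted p = 0.00320), with an adjusted p of 0.0518 without WT E2+P4 1. Rspo1, an R-spondin that strengthens Wnt signalling, was at 186, 12.8 and 29.6 CPM in WT E2+P4 cells and 13.0, 18.4, 3.46 and 4.42 CPM in WT P4 cells, and its call (2.95 ± 0.96 log2, adjusted p = 0.0257) was lost in 7 alternatives, with an adjusted p of 0.475 without WT E2+P4 1. Elf5, the alveolar lineage factor, was at 34.1, 11.8 and 10.4 CPM in WT E2+P4 cells and 6.07, 8.79, 19.7 and 15.9 CPM in WT P4 cells (0.58 ± 0.41 log2, adjusted p = 0.335). Without WT E2+P4 1, 2 of the 18 were called higher.

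Ligands by which these cells signal to others went in both directions, with 5 of 24 higher and 5 lower (4 to 7 and 2 to 6 over the alternatives). Tph1, which starts serotonin synthesis in tissues outside the brain, was at 301, 286 and 497 CPM in WT E2+P4 cells, against 41.1, 95.2, 72.1 and 42.4 CPM in WT P4 cells (2.53 ± 0.59 log2, adjusted p = 0.00204). Bmp3 was at 226, 198 and 284 CPM in WT E2+P4 cells, against 36.6, 47.3, 24.7 and 19.1 CPM in WT P4 cells (2.89 ± 0.53 log2, adjusted p = 1.78e-04), and Penk, preproenkephalin, rose by 5.05 ± 0.98 log2. Inhbb, the activin B subunit, was at 27.9, 13.5 and 16.9 CPM in WT E2+P4 cells, against 209, 213, 486 and 438 CPM in WT P4 cells (-4.11 ± 0.31 log2, adjusted p = 1.42e-10), and its WT P4 libraries fell into 209 and 213 CPM for numbers 2 and 3 and 486 and 438 for the later identifiers. Wnt7b fell by 1.44 ± 0.21. Wnt4, a progesterone-induced ligand, was at 128, 38.7 and 220 CPM in WT E2+P4 cells, against 447, 463, 424 and 349 CPM in WT P4 cells (-1.71 ± 0.53 log2, adjusted p = 0.0202), with an adjusted p of 0.0633 without WT E2+P4 1 and 0.112 without WT E2+P4 2. Tnfsf11, RANKL, was not called at 119, 16.6 and 31.3 CPM in WT E2+P4 cells and 15.8, 39.9, 6.15 and 2.83 CPM in WT P4 cells (1.78 ± 0.89 log2, adjusted p = 0.157), with an adjusted p of 0.0446 without WT P4 3. Of 25 receptors and regulators of these ligands 3 were higher and 2 lower, near the background. Ramp1, a component of receptors for calcitonin family peptides, rose by 3.17 ± 0.37 log2, the R-spondin receptor Lgr4 by 1.90 ± 0.29 log2 and the insulin signalling adaptor Irs2 by 1.05 ± 0.30 log2.

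Nuclear receptors and coregulators were called lower in 9 of 29 and higher in 0, with a median of -0.44 log2. Nr3c2, the mineralocorticoid receptor, was at 5.43, 5.70 and 6.31 CPM in WT E2+P4 cells, against 44.2, 60.6, 54.5 and 62.7 CPM in WT P4 cells (-3.25 ± 0.42 log2, adjusted p = 1.29e-06). Esrrg, estrogen-related receptor gamma, was at 2.47, 6.62 and 4.84 CPM in WT E2+P4 cells, against 53.9, 76.5, 73.0 and 84.6 CPM in WT P4 cells (-3.96 ± 0.53 log2, adjusted p = 1.92e-06). Pparg was at 0.961, 6.21 and 3.34 CPM in WT E2+P4 cells, against 13.7, 31.1, 208 and 142 CPM in WT P4 cells (-4.82 ± 0.75 log2, adjusted p = 2.01e-05), and the later identifiers held the high WT P4 values. Thra, a thyroid hormone receptor, fell by 1.47 ± 0.25. In steroid metabolism 2 of 9 were higher, Hsd11b2 and the estrogen hydroxylase Cyp1b1 (3.59 ± 1.01 log2, adjusted p = 0.117 without WT E2+P4 1), and 1 lower, Hsd17b2, which oxidizes estradiol (-4.17 ± 0.90 log2).

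Of 13 uroplakin and potassium channel genes 2 were called higher and 4 lower, of 15 keratins and mucins 2 higher and 3 lower, and of 17 claudins and other tight junction genes 4 higher and 1 lower. Over all genes 12% were called higher and 11.1% lower. The small counts of the lists in this paragraph are not read as departures from these shares. Kcnh1, a voltage-gated potassium channel, was at 3.10, 6.85 and 9.71 CPM in WT E2+P4 cells, against 210, 268, 191 and 253 CPM in WT P4 cells (-5.14 ± 0.81 log2, adjusted p = 2.61e-05). Kcnma1, the large-conductance channel, fell by 4.34 ± 0.67 log2, while Kcnn4 and Kcnk1 rose by 2.33 ± 0.56 log2 and 0.92 ± 0.14 log2. The membrane mucin Muc13 was at 221, 1000 and 1046 CPM in WT E2+P4 cells, against 18.6, 22.5, 61.5 and 58.9 CPM in WT P4 cells (4.23 ± 0.81 log2, adjusted p = 2.90e-04), and Muc16 fell by 4.5 ± 0.97. Krt4 was at 13.0, 55.1 and 67.3 CPM in WT E2+P4 cells, against 172, 235, 340 and 404 CPM in WT P4 cells (-2.67 ± 0.57 log2, adjusted p = 8.71e-04). The claudin Cldn3 rose by 1.24 ± 0.14 log2. In the TGF-beta and BMP list 3 of 22 were higher and 4 lower: Tgfb3 was at 495, 527 and 775 CPM in WT E2+P4 cells, against 67.7, 63.7, 93.2 and 92.5 CPM in WT P4 cells (2.92 ± 0.25 log2, adjusted p = 1.49e-09), and the receptor Tgfbr2 fell by 1.34 ± 0.20 and Id2 by 1.86 ± 0.29. Jag1 and Hes1 of the Notch pathway fell by 1.88 ± 0.42 and 0.90 ± 0.18, 2 of 15 members. Hes1 lost its call in the first identifier series (adjusted p = 0.0515) and with only the groups compared (0.0533). Of 6 genes of MHC class II presentation 1 was called, H2-DMa (2.17 ± 0.22 log2).

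**Figure D3:**
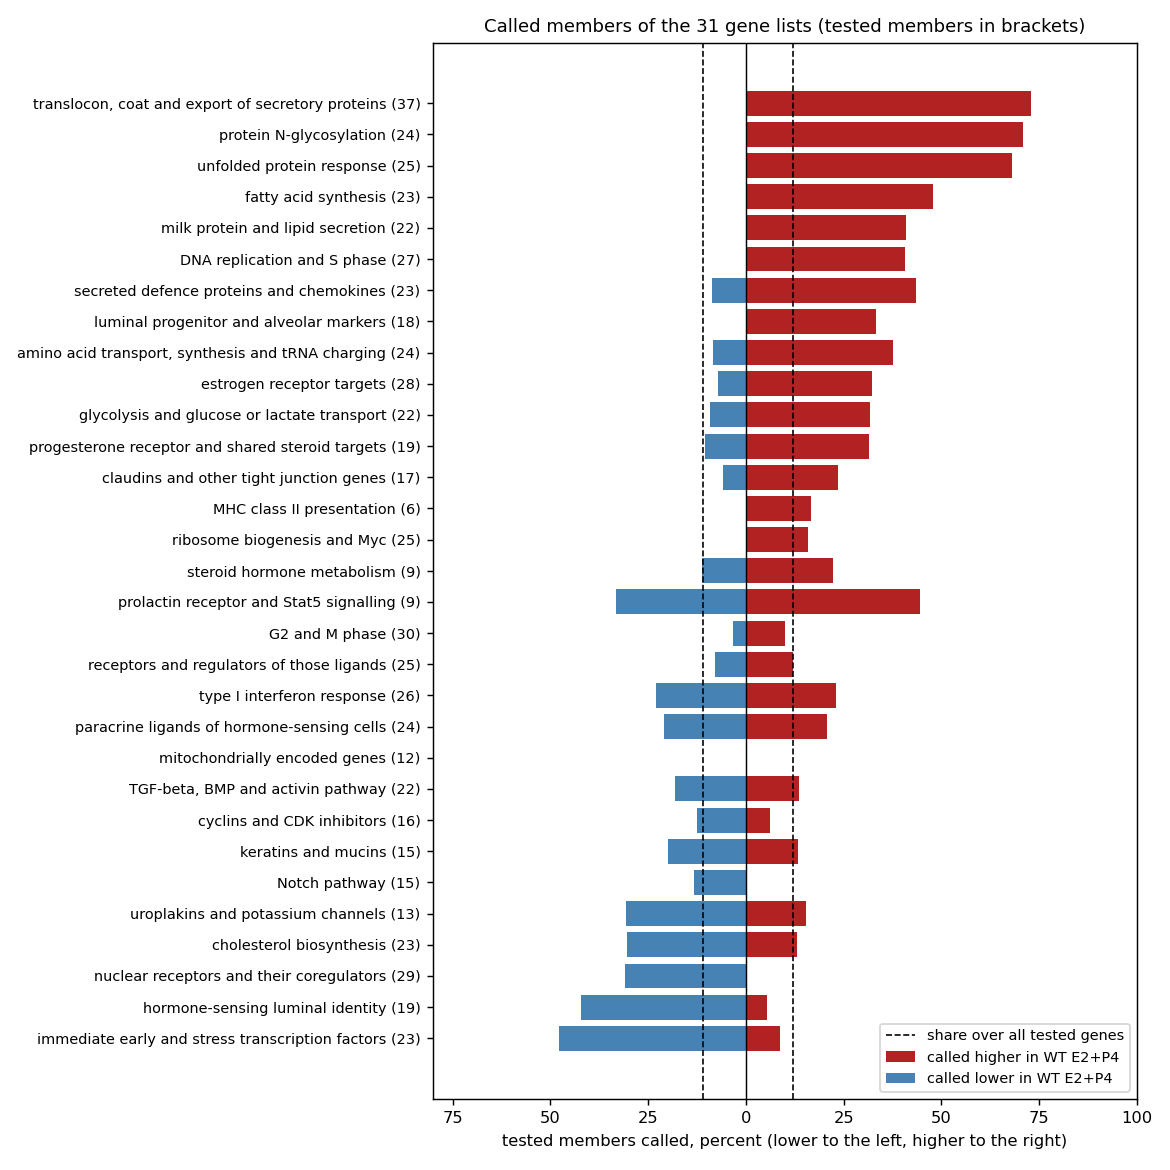
Percent of the tested members of each of 31 gene lists called higher (to the right) and lower (to the left) in WT E2+P4 against WT P4, with dashed lines at 12% and 11.1%, the shares over all genes. The lists for translocon and export, N-glycosylation and the unfolded protein response had the highest shares of members called higher, and immediate early factors the highest share called lower.

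Cell cycle genes had mostly positive values, in 25 of 27 replication genes and 29 of 30 genes of G2 and M phase. Their calls depended on which libraries were kept and on the fit. Of 27 replication genes 11 were called higher and 0 lower (median 1.13 log2), and of 30 genes of G2 and M phase 3 were higher and 1 lower (median 1.51). The mean log2 CPM of the G2 and M phase genes was 5.03, 2.34 and 3.52 in WT E2+P4, against 4.13, 0.43, 0.57 and 0.98 in WT P4, so WT P4 2 lay within the range of the E2 group. Mcm7, of the replicative helicase, was at 45.7, 13.8 and 23.0 CPM in WT E2+P4 cells and 17.7, 6.06, 7.84 and 8.91 CPM in WT P4 cells (1.44 ± 0.39 log2, adjusted p = 0.00671) and Nusap1, of the spindle, at 51.3, 8.35 and 12.6 CPM in WT E2+P4 cells and 10.7, 0.324, 1.67 and 1.94 CPM in WT P4 cells (2.70 ± 0.84 log2, adjusted p = 0.0196). Mki67, a marker of cycling cells, was at 42.6, 4.51 and 17.6 CPM in WT E2+P4 cells and 37.6, 1.32, 0.672 and 2.39 CPM in WT P4 cells (1.03 ± 1.0 log2, adjusted p = 0.503), and its value was 3.88 with an adjusted p of 0.00516 without WT P4 2. Without WT P4 2, 21 replication and 26 mitotic genes were called higher; without WT E2+P4 1, and within the first identifier series, 0 of either list were. Without WT E2+P4 1 the values stayed positive but smaller, at 0.86 log2 for Mcm7 (adjusted p = 0.139) and 1.5 for Nusap1 (adjusted p = 0.249). Basal markers moved with WT P4 2 as well: Krt5 was at 6.17, 5.54 and 10.7 CPM in WT E2+P4 cells and 200, 1.32, 2.91 and 4.99 CPM in WT P4 cells and Trp63 at 2.57, 4.99 and 6.21 CPM in WT E2+P4 cells and 87.5, 0.730, 0.352 and 2.45 CPM in WT P4 cells. Their part in the cell cycle values was not tested. Ccnd1 was at 212, 87.5 and 115 CPM in WT E2+P4 cells and 128, 112, 112 and 101 CPM in WT P4 cells (adjusted p = 0.497), and Myc, not called at 0.71 ± 0.28 log2, adjusted p = 0.0642, had every WT E2+P4 library above every WT P4 library (346, 400 and 415 CPM in WT E2+P4 cells and 193, 248, 253 and 256 CPM in WT P4 cells). Myc was called at adjusted p of 0.00998 to 0.0414 in 4 alternatives.

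Immediate early and stress factors were called lower in 11 of 23 and higher in 2, with a median of -0.88 log2. Junb was at 906, 1398 and 1111 CPM in WT E2+P4 cells, against 2273, 2178, 4745 and 4178 CPM in WT P4 cells (-1.55 ± 0.23 log2, adjusted p = 1.11e-05). Egr1 was at 460, 575 and 353 CPM in WT E2+P4 cells, against 1139, 936, 2024 and 1924 CPM in WT P4 cells (-1.70 ± 0.36 log2, adjusted p = 8.98e-04) and Nr4a1 fell by 2.14 ± 0.41. Nr4a1 had -0.78 log2 with an adjusted p of 0.0695 in the first identifier series, and an adjusted p of 0.0574 with only the groups compared. In these genes the later identifiers WT P4 4 and 5 were the highest: the mean log2 CPM of the list was 7.16, 7.80 and 7.62 in WT E2+P4, against 7.88, 7.61, 8.57 and 8.54 in WT P4. Within the first identifier series 2 of 23 were called lower. Klf6 rose in contrast (1885, 3529 and 3912 CPM in WT E2+P4 cells, against 915, 1039, 1241 and 1290 CPM in WT P4 cells, 1.47 ± 0.19 log2, adjusted p = 1.07e-06).

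Interferon-stimulated genes split, with 6 of 26 higher and 6 lower. Bst2, tetherin, was at 348, 414 and 508 CPM in WT E2+P4 cells, against 42.2, 44.1, 49.6 and 37.3 CPM in WT P4 cells (3.29 ± 0.26 log2, adjusted p = 1.73e-10), and Rsad2, viperin, rose by 2.10 ± 0.39 log2. Ifih1, the RNA sensor MDA5, fell by 0.93 ± 0.22 and Xaf1 by 1.49 ± 0.36. Both lost the call in the first identifier series (adjusted p = 0.0546 and 0.0894) and in the blocked fit (0.0543 and 0.0806), and 2 to 7 of the list were called lower over the alternatives. Genes of tRNA charging and amino acid supply were higher in 9 of 24 and lower in 2, with Wars at 459, 694 and 928 CPM in WT E2+P4 cells, against 239, 205, 188 and 289 CPM in WT P4 cells (1.59 ± 0.34 log2, adjusted p = 0.00101). Over the alternatives 3 to 10 were higher, and Wars had 1.15 log2 with an adjusted p of 0.0702 with the block. Ribosome biogenesis had 4 of 25 higher and 0 lower, against 12% and 11.1% of all genes, and without WT E2+P4 1 it had 0 higher. The mitochondrially encoded genes had a median of 0.93 log2 with 0 of 12 called, and their mean log2 CPM was highest in WT E2+P4 2 (6.44).

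Markers of other cell types gave few calls. Of 15 basal markers 1 was called, Oxtr (2.82 ± 0.57 log2), of 12 endothelial markers 1 rose, Vwf (289, 388 and 443 CPM in WT E2+P4 cells, against 55.4, 51.7, 57.7 and 98.4 CPM in WT P4 cells, 2.50 ± 0.40 log2, adjusted p = 2.47e-05), and 1 fell, Eng (-1.75 ± 0.44 log2), and of 7 adipocyte markers 1 rose, Cidec (2.63 ± 0.94 log2). Cidec lost its call in 9 of 13 alternatives (adjusted p up to 0.123, without WT E2+P4 1), and Eng in the first identifier series (0.0866). Of 13 fibroblast, 15 leukocyte and 5 erythroid markers 0 were called. Leukocyte markers summed to 13.0 to 94.1 CPM in WT E2+P4 and 9.59 to 59.1 in WT P4, and fibroblast markers to 62.3 to 361 in WT E2+P4 and 72.3 to 428 in WT P4. Endothelial markers summed to 326 to 584 CPM in WT E2+P4 and 141 to 365 in WT P4, and adipocyte markers to 17.4 to 147 in WT E2+P4 and 32.6 to 97.8 in WT P4. The markers Ms4a1, Itgam, Cav1, Lipe and Alas2 were at 0 in every library. The part of these cells in the results was not tested.

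**Figure D4:**
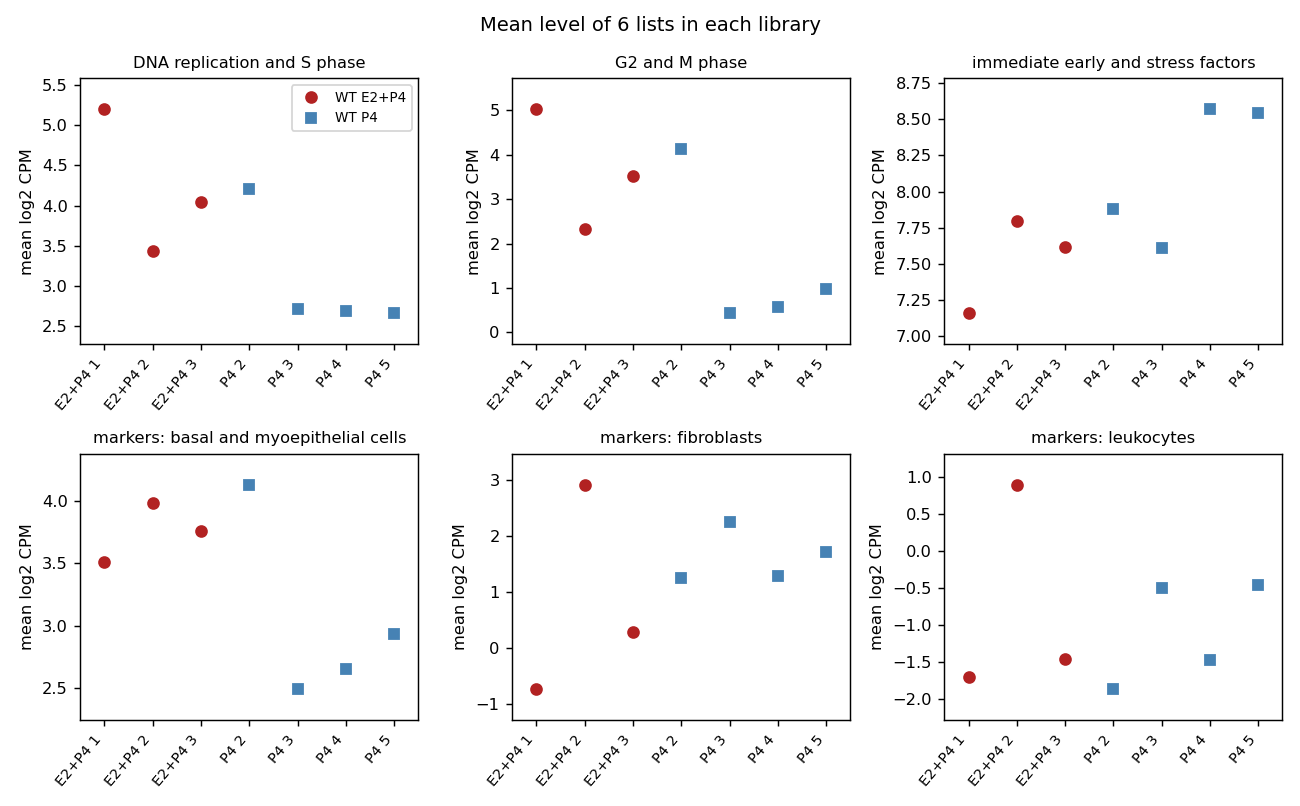
Mean log2 CPM of 6 lists in each library, with WT E2+P4 1 to 3 as circles and WT P4 2 to 5 as squares. WT P4 2 stands at 4.13 among G2 and M phase genes, above its group, WT P4 4 and 5 stand highest for immediate early genes (8.57 and 8.54), and WT E2+P4 2 is highest in fibroblast (2.91) and leukocyte markers (0.89).

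Whether the response to E2 was the same without P4 was tested as a difference of responses, (E2+P4 minus P4) minus (E2 minus placebo), in WT cells. The difference was called positive for 1178 genes (6.39%) and negative for 921 (5%), 11.4% in all. Prom2, a prominin, was at 5391 ± 2072 CPM in WT E2+P4 cells and 466 ± 114 CPM in WT P4 cells, and at 113 ± 18.5 CPM under E2 alone and 507 ± 122 CPM under placebo (difference 5.70 ± 0.48 log2, adjusted p = 3.17e-08). Tmed3 was at 1408 ± 202 CPM under E2 alone and 1458 ± 729 CPM under placebo. E2 alone gave no call for it (-0.05 ± 0.35 log2, adjusted p = 0.938), and the difference was 3.97 ± 0.49 log2, adjusted p = 3.42e-06. The largest positive differences were those of Gm12873 (6.54), the calcium-binding Kcnip3 (5.80), Prom2, tenascin Tnxb (5.60), Apof (5.42) and synapsin Syn2 (5.16). The largest negative ones were those of the protease Htra3 (-5.41), Clca1 (-5.25), Lyz2 (-4.81), Penk (-4.76), Ier5l (-4.55) and Tph1 (-4.54). Of 19 alternatives, Lyz2 lost its call in 13 (adjusted p up to 0.156, without WT E2 1), Penk in 8 (up to 0.161, without WT P4 3) and Ier5l in 4 (up to 0.0639, without WT placebo 3). Penk was at 20.6 ± 13.3 CPM in WT E2+P4 cells and 0.597 ± 0.687 CPM in WT P4 cells, and at 555 ± 168 CPM under E2 alone and 0.614 ± 0.160 CPM under placebo.

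Most hormone-sensing identity genes with a called difference between the responses had a positive one. Without P4, E2 lowered 12 of 19 and raised 2, against 15.9% and 15.6% of all genes (31.5% in all), and with P4 it lowered 8. The difference was called positive for 8 of 19 and negative for 1, Sytl2 (-3.10 ± 0.86 log2, adjusted p = 0.0173), and 10 were not called. Esr1 was at 236 ± 106 CPM in WT E2+P4 cells and 537 ± 74.2 CPM in WT P4 cells, and at 24.3 ± 14.8 CPM under E2 alone and 688 ± 130 CPM under placebo (difference 3.64 ± 0.46 log2, adjusted p = 5.36e-06). Prlr had a difference of 2.68 ± 0.46 log2 and Cited1 of 3.20 ± 0.65 log2. Pgr turned round. It was at 67.0 ± 23.8 CPM under E2 alone and 184 ± 97.7 CPM under placebo, where E2 alone lowered it (-1.46 ± 0.37 log2, adjusted p = 0.00326), and rose with P4 (difference 2.84 ± 0.50 log2, adjusted p = 3.97e-04).

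The interferon list had mostly negative differences. E2 alone raised 17 of 26 and lowered 0 (median 1.71 log2), and the difference was called negative for 14 and positive for 1, Bst2. Ifit1 was at 18.4 ± 14.4 CPM in WT E2+P4 cells and 6.55 ± 2.67 CPM in WT P4 cells, and at 96.6 ± 61.7 CPM under E2 alone and 3.56 ± 1.18 CPM under placebo (difference -3.27 ± 0.70 log2, adjusted p = 0.00253). The count of negative calls was 8 to 15 over the alternatives. Leukocyte markers rose under E2 alone in 6 of 15, with a difference called negative for 1, and their part in the interferon values was not tested. Progenitor and alveolar markers had 0 positive and 5 negative differences of 18. E2 alone raised 13 of these markers and lowered 0 (median 2.50 log2). The part of the mix of cells in the differences between responses was not tested.

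In the secretory lists, called differences were mostly positive, though most members were not called. Without P4, E2 raised 16 of 37 translocon and export genes, 7 of 24 N-glycosylation genes and 8 of 25 genes of the unfolded protein response. It lowered 3, 1 and 3 of them, while 15.6% of all genes were raised and 15.9% lowered. The difference was called positive for 13 of 37 translocon and export genes, 11 of 24 N-glycosylation genes and 10 of 25 genes of the unfolded protein response, and negative for 0, 0 and 1. Sdf2l1 had a response to E2 alone of 0.13 ± 0.24 log2, not called, and a difference of 2.01 ± 0.33 log2, adjusted p = 1.45e-04. Edem2 had a difference of 1.75 ± 0.25 log2, Rpn2 of 1.31 ± 0.25 log2 and Spcs3 of 1.22 ± 0.21 log2. Hspa5 was the negative call: it rose by 1.33 ± 0.18 log2 under E2 alone (difference -0.81 ± 0.24 log2, adjusted p = 0.0275). Over the alternatives the positive counts ran from 7 to 16 in the first list, 7 to 14 in the second and 7 to 13 in the third.

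**Figure D5:**
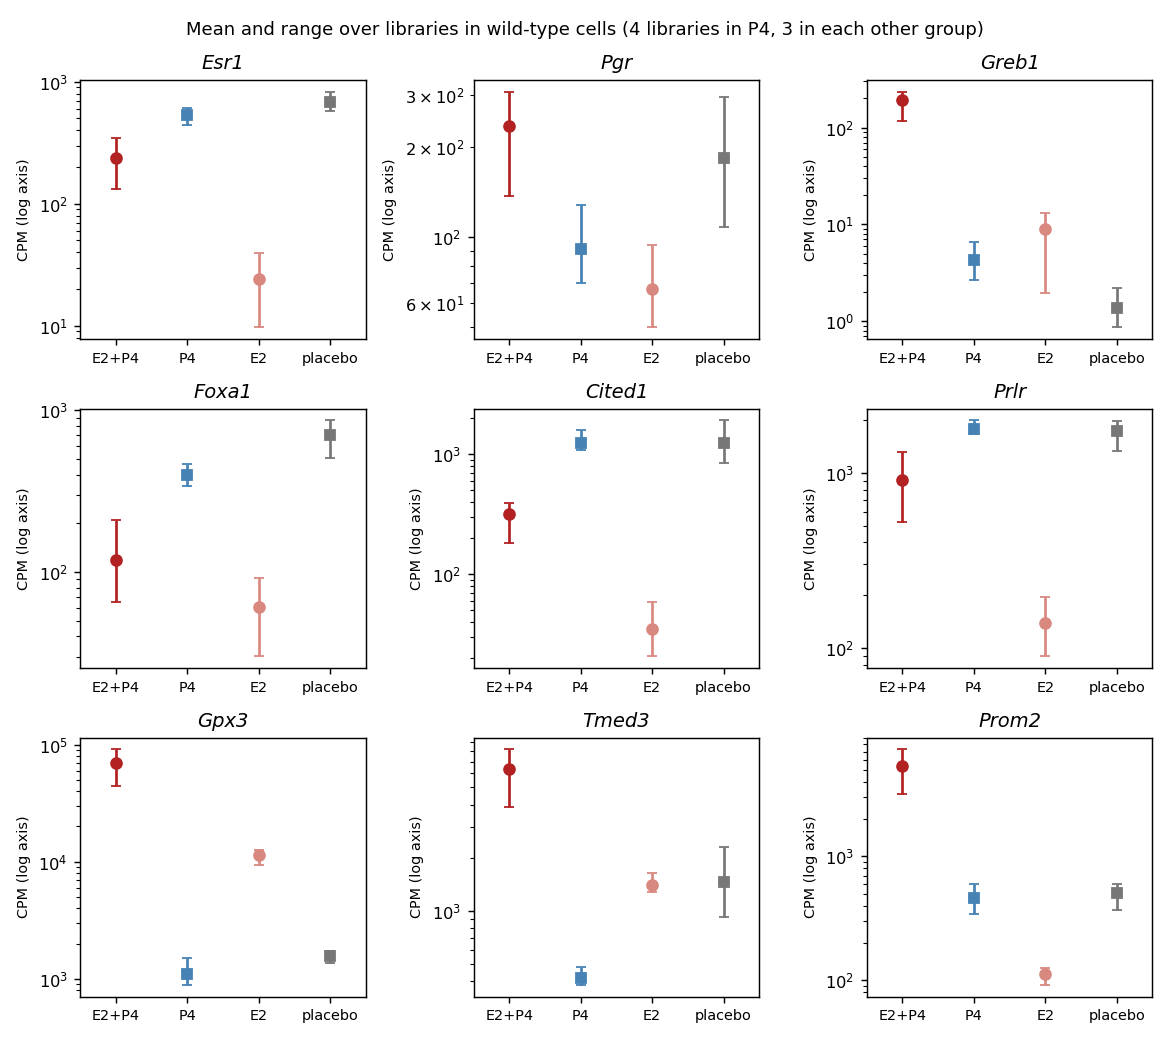
Mean CPM on a log axis with bars from the lowest to the highest library for 9 genes in WT cells given E2+P4 (3 libraries), P4 (4), E2 (3) and placebo (3), from left to right. Esr1, Foxa1, Cited1 and Prlr are lowest under E2 alone, Greb1, Gpx3, Tmed3 and Prom2 are highest under E2+P4, and the ranges of Pgr under E2+P4 and placebo overlap.

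The response to E2 added to P4 was also set against that of the mutant receptors, each against its own P4 group, so both differences share the WT libraries. D542G cells had 551 genes called higher (2.99%) and 402 lower (2.18%), 5.17% in all. Y541S cells had 162 higher (0.879%) and 148 lower (0.803%), 1.68% in all. The WT response differed from that of D542G cells in 260 genes (1.41%), with 156 positive (0.847%) and 104 negative (0.564%), and from that of Y541S cells in 1066 (5.79%), with 640 positive (3.47%) and 426 negative (2.31%). Sftpd was at 149 ± 66.9 CPM in D542G E2+P4 cells and 13.1 ± 9.09 CPM in D542G P4 cells (WT minus D542G 5.61 ± 0.72 log2, adjusted p = 1.12e-04). It was at 24.2 ± 10.2 CPM in Y541S E2+P4 cells and 7.03 ± 1.47 CPM in Y541S P4 cells (WT minus Y541S 7.34 ± 0.74 log2, adjusted p = 4.30e-07). The P4 cells of both mutants thus averaged above the 0.276 to 1.43 CPM of WT P4 cells, a difference not tested here. Pcp4 was at 196 ± 84.6 CPM in WT E2+P4 cells and 0.593 ± 0.0924 CPM in WT P4 cells. It was at 165 ± 62.9 CPM in D542G E2+P4 cells and 102 ± 103 CPM in D542G P4 cells (difference 7.67 ± 1.04 log2, adjusted p = 1.12e-04). In Y541S cells it was at 371 ± 35.0 CPM under E2+P4 and 473 ± 53.4 CPM under P4 (difference 8.71 ± 1.06 log2, adjusted p = 4.58e-06). Its mean in the P4 cells of both mutants was thus also above that in WT P4 cells, which was not tested. Among the genes that fell, Ptn was at 505 ± 151 CPM in D542G E2+P4 cells and 1811 ± 266 CPM in D542G P4 cells (difference -4.14 ± 0.78 log2, adjusted p = 0.00492) and at 810 ± 55.9 CPM in Y541S E2+P4 cells and 1182 ± 333 CPM in Y541S P4 cells (difference -5.43 ± 0.80 log2, adjusted p = 5.96e-05). For the secretory lists the WT response differed from that of D542G cells in 1 of 37, 2 of 24 and 1 of 25 genes and from that of Y541S cells in 8, 3 and 4. E2 added to P4 raised 15, 11 and 13 members of these lists in D542G cells and 12, 4 and 10 in Y541S cells.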

How the data were processed

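RNA-seq of sorted mature luminal cells gave 1 table per library with counts and RPKM for 52636 Ensembl genes. Libraries were made from cDNA with Nextera XT after RNeasy Micro Plus extraction, per the labels' protocols. The authors' deposited counts are raw counts per gene on GRCm38, per the submitters' processing notes. The aligner, counter and strand setting are not given in the sources used here, so reads of overlapping and antisense genes cannot be told apart. The authors' deposited RPKM values were not used for any test.

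Symbols came from GENCODE M21 for 52489 genes, and the 147 without one held at most 0.007% of a library. Counts of all 37 libraries (25.69 to 52.24 M) were fitted with edgeR 4.0.16 under R 4.3.3 (quasi-likelihood, robust, 12 groups, TMM factors 0.77 to 1.17). filterByExpr kept 18426 genes, and the common biological coefficient of variation was 0.458 with 25 residual degrees of freedom. Genes with an adjusted p (Benjamini-Hochberg, all tested genes) under 0.05 were called. CPM values used TMM-scaled library sizes. Intervals and floors (3 counts) cover counting error only. Replicates of a group all differed by more than counting noise (chi-square divided by its degrees of freedom, 33.7 to 185.8). The procedure was also run on simulated data with known changes. These changes touched few genes, unlike the 23.2% called here, so that run does not test the procedure at this scale.

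The comparison, the 37 gene lists and the named genes were chosen with earlier results of these data known. The text names the 12 genes that rose most and the 12 that fell most among calls (mean of 2 log2 CPM or more, no overlap), the 5 that rose and the 5 that fell most in CPM, up to 5 called members per list with the smallest p, marker genes, a panel of receptors and ligands, and the 6 largest in each direction of each difference. Other names, among them Sec61a1, Sec24d, Clu, Reg3g, Saa2, Csn1s1, Csn2, Wap, Lalba, Ifit1, Ddit3, Trib3, Chac1, Creb3l1, Creb3l2 and the genes with promoter matches, were chosen after their values were seen. Some genes that the rule names are not reported here. Alternatives were DESeq2 size factors, no filter beyond 1 count, DESeq2 1.42.0, only the groups compared, the first identifier series, the sample number as a block, and leaving out each library.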

Additional observations from a re-analysis of the deposited data

Results flagged for a closer look

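Among 211 genes and lists looked at in the 4 WT P4 libraries, several had 1 library far from the others. Chance marks about 1 in 20 groups. Library WT P4 2 was the highest for Hsd11b2 (1.79 CPM), Hspb8 (66.7), Nusap1 (10.7), Tpx2 (15.3), Scd2 (167), Smad6 (31.3) and Mki67 (37.6), and the lowest for Myc (193). It was also the highest in mean log2 CPM of replication and S phase genes (4.21), of G2 and M phase genes (4.13), of cholesterol biosynthesis (5.36) and of keratins and mucins (7.54). WT P4 3 was the highest for Sftpd (1.43 CPM), Dpep2 (5.30) and Slc16a3 (3.35), and for the mean of secreted defence proteins (2.72 log2 CPM). WT P4 4 was the highest for Cited1 (1591 CPM) and Cldn10 (469; call lost in 9 of 13 alternatives), and WT P4 5 for Vwf (98.4).

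The tested differences between responses were also marked. The response of WT cells to E2 with P4 differed from that without P4 in 2099 genes. Its largest positive values were those of Gm12873 (6.54 log2), Kcnip3 (5.80), Prom2 (5.70), Tnxb (5.60), Apof (5.42) and Syn2 (5.16). Its largest negative values were those of Htra3 (-5.41), Clca1 (-5.25), Lyz2 (-4.81), Penk (-4.76), Ier5l (-4.55) and Tph1 (-4.54). Lyz2 lost its call in 13 of 19 alternatives (adjusted p up to 0.156), Penk in 8 (up to 0.161) and Ier5l in 4 (up to 0.0639). Lyz2 is also a marker of leukocytes, and Clca1 belongs to a family of close copies.

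Set against D542G cells, the WT response to E2 added to P4 differed in 260 genes. Pcp4 (7.67 log2), Penk (6.54), Sftpd (5.61), Dpep2 (5.42), Defb1 (5.28) and Atp2a3 (4.46) had the largest positive values. Dusp2 (-5.11), Pparg (-5.10), Ddit4 (-4.33), Ptn (-4.14), Col8a1 (-4.12) and Eln (-4.01) had the largest negative ones. Of 19 alternatives, Eln lost its call in 13 (adjusted p up to 0.126), Defb1 in 11 (up to 0.142), Penk in 4, Dusp2 and Pparg in 3 each and Ddit4 in 1. Penk had 3.37 log2 with an adjusted p of 0.101 without D542G P4 1, and its D542G P4 libraries ran from 60.7 to 1770 CPM. Pparg had -2.95 log2 with an adjusted p of 0.0857 in the first identifier series. Pparg was high only in the later identifiers of WT P4, at 13.7, 31.1, 208 and 142 CPM in libraries 2, 3, 4 and 5.

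Set against Y541S cells, the WT response differed in 1066 genes. Sprr2g (8.83 log2), of a family of close copies, Pcp4 (8.71), Sftpd (7.34), Ptpn5 (6.51), Dpep2 (6.40) and Tmem238l (6.24) led the positive values. Ptn (-5.43), Col8a1 (-5.39), Nrxn3 (-5.34), Upk3a (-5.32), Nckap5 (-4.96) and Olfm1 (-4.76) led the negative ones. Upk3a lost its call in 7 of 19 alternatives (adjusted p up to 0.0789, without WT E2+P4 3).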

How the results depend on the processing

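The count of genes called in WT E2+P4 against WT P4, 4274, was 4295 with DESeq2 size factors, 3592 with no filter beyond 1 count, 4955 with DESeq2, 3456 with only the groups compared, and 3251 to 4227 with a library left out. It was 2838 in the first identifier series, where fewer libraries were tested; 2653 of the calls were shared in direction, 62.1% of the 4274. The count for the difference between WT responses with and without P4 was 1312 with only the groups compared and 1247 to 2446 with a library left out, the lowest without WT E2+P4 3. For the difference from D542G cells it was 170 without the filter, 689 with DESeq2, 135 with only the groups compared, 154 in the first identifier series and 132 to 290 with a library left out; the lowest of these were without WT E2+P4 2 (160) or 3 (158), WT P4 5 (141), D542G E2+P4 3 (132) or D542G P4 1 (172). For the difference from Y541S cells it was 1632 with DESeq2, 1622 with only the groups compared and 733 to 1156 with a library left out. Apart from the smaller sets of libraries, the cause was not tested.

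WT E2+P4 and WT P4 share the sample numbers 2 and 3, and no label says what a number stands for. Deviations of same-numbered libraries from their group means correlated at -0.15 and -0.00, and other pairs at -0.12 to 0.17. So few same-numbered pairs cannot show whether the libraries share more than a number. With the number as a replicate block, 3205 genes were called in WT E2+P4 against WT P4, 1331 for the difference with and without P4, 174 from D542G and 804 from Y541S cells. Number 4 occurred only in WT P4 4, so the block took that library out of the comparison. Number 5 occurred only in WT P4 5 and Y541S placebo 5. The blocked fit thus cannot tell an effect of the numbers from a loss of libraries.

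Of 167 named genes called in WT E2+P4 against WT P4, 42 lost the call in at least 1 of 13 alternatives, and of 7 not called 5 gained it. Of 12 named genes in each difference, 3 lost the call in at least 1 of 19 alternatives with and without P4, 6 against D542G and 1 against Y541S cells. No value changed sign among the calls. The number of libraries, 3 and 4 per group, limits the precision, and a gene that was not called is not shown to be the same in both groups.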
